A study of Mus musculus with 2 samples.

Results

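RNA levels of 7 genes were followed across the cell populations of a mouse liver tumour region. They are the regulatory T cell genes Foxp3, Ikzf2, Il2ra, Il2rb and Lrrc32, and with them Il10 and Maf. The genes were taken by symbol, 7 of the 31053 features counted, and each was found once. They were selected on their measured RNA levels in these 2 libraries, so the levels are a description. The question was whether Il10 and Maf RNA lay in Foxp3 cells, in CD4 T cells without Foxp3, in CD8 T cells with the PD-1 gene, or in macrophages.

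Regulatory T cells are CD4 T cells that restrain other immune cells, and the transcription factor Foxp3 defines them. They take up the growth factor IL-2 through a receptor whose alpha and beta chains are made by Il2ra and Il2rb, and Ikzf2 (Helios) and Lrrc32 (GARP, which holds latent TGF-beta at the cell surface) are among their known genes. Il10 encodes an anti-inflammatory cytokine that regulatory T cells, Foxp3 negative Tr1 cells, other effector T cells, B cells and macrophages can all make. Maf encodes a transcription factor that binds and activates Il10 in several T cell types and is also a known gene of resident macrophages.

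The inhibitor library came from C57BL/6 mice given a FABP5 inhibitor from month 13, and the control library from C57BL/6 mice labelled control. Mice of both groups were fed CD-HFD for 15 months and were recorded as 17 months old, and cells were taken from the HCC (hepatocellular carcinoma) region of the liver. FABP5 is a carrier of fatty acids inside cells. The number of mice behind each library, what the control mice received and which Annexin V fraction was sequenced are not stated in the sources used here.

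Each group had 1 library, so no difference below has a replicate check and none was tested. All intervals are 95% intervals of counting error alone. The inhibitor library held 10649 barcodes and 68074929 unique molecular identifiers (UMIs, each marking 1 captured RNA molecule), and the control library 9493 barcodes and 53378693 UMIs. After the limits on genes, UMIs, mitochondrial RNA and doublets, 8753 inhibitor and 6461 control cells were kept. The libraries shared 18 barcodes among kept cells. Genes of secreted liver proteins made up 0.0892% of the UMIs of all inhibitor barcodes and 1.51% of those of all control barcodes, before any limit. Genes of this kind were also found in cells of other types, and their values are given beside the results.

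T cell-like clusters held 2588 inhibitor and 2086 control cells, and they carried the T cell markers Cd3d, Cd3e, Cd3g, Trac, Trbc2 and Cd28. Within them a cell with at least 1 Foxp3 UMI was called Foxp3 positive, which gave 94 inhibitor and 117 control cells. Foxp3 negative CD4 T cells (a Cd4 UMI and none of Cd8a or Cd8b1) numbered 298 in the inhibitor and 246 in the control library. PD-1 positive CD8 T cells (a Cd8a or Cd8b1 UMI, a Pdcd1 UMI and none of Cd4 or Foxp3) numbered 289 in the inhibitor and 318 in the control library. The 7 genes themselves were left out of the genes used for clustering.

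Foxp3, which set the gate, lay mostly in the T cell clusters. Foxp3 positive T cells held 157 of the 167 Foxp3 UMIs of the inhibitor library and 197 of the 248 of the control library. Within them Foxp3 was at 455 CPM (the gene's UMIs scaled to a population total of 1000000, 387 to 532) in the inhibitor and 487 CPM (422 to 560) in the control library. Of these cells 54 in the inhibitor and 68 in the control library had exactly 1 Foxp3 UMI, and 40 and 49 had 2 or more, so a Foxp3 cell whose few transcripts were missed falls in a Foxp3 negative population. Outside the T clusters the control library had 13 Foxp3 UMIs in cDC2-like, 12 in IL-17-type gamma delta T-like and 12 in hepatocyte-like cells, where the inhibitor library had 5, 0 and 0.

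Foxp3 positive cells made up 3.63% of T cell-like cells in the inhibitor library (2.94 to 4.43) and 5.61% in the control library (4.66 to 6.68), a log2 ratio of -0.63 (-1.03 to -0.22). By T cell cluster, 89 inhibitor and 92 control Foxp3 positive cells lay in cluster 5, 2 and 8 in cluster 1, and 1 and 17 in cluster 9. Of all T cell-like cells, 898 in the inhibitor and 274 in the control library lay in cluster 3. The part of these clusters in the share was not tested. The Foxp3 level within the gate had a log2 ratio of -0.10 (-0.41 to 0.21). A Cd4 UMI was seen in 34 of the inhibitor and 37 of the control Foxp3 positive cells, and a Cd8a or Cd8b1 UMI in 11 and 18. Markers of other cells were also counted. The 10 macrophage markers summed to 104 CPM in inhibitor and 356 CPM in control Foxp3 positive cells, with 6 and 5 of them at 0, and the 8 hepatocyte markers to 119 and 1079 CPM, with 1 at 0 in each. The 7 B cell markers summed to 583 CPM in inhibitor and 611 CPM in control Foxp3 positive cells, against 141 and 204 CPM in Foxp3 negative CD4 T cells. Ighm alone, the immunoglobulin mu chain gene, was at 527 and 589 CPM in the Foxp3 positive cells, while Cd79a, Ms4a1 and Pax5 had no UMI there in either library. The part of these RNAs in the Foxp3 results was not tested.

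Il10 RNA was hardly found in Foxp3 positive T cells. In the inhibitor library 2 of 94 Foxp3 positive cells had an Il10 UMI (2.13%, exact interval 0.259 to 7.48), with 4 and 2 UMIs, and in the control library 2 of 117 (1.71%, 0.208 to 6.04), with 2 and 1. That is 17.4 CPM in the inhibitor and 7.42 CPM in the control library, a log2 ratio of 1.23 whose interval ran from -0.999 to 3.86. Foxp3 positive cells thus held 1.35% (0.495 to 2.91) of all Il10 UMIs of the inhibitor library and 2.97% (0.617 to 8.44) of those of the control library. Hepatocyte-like cells, which should lack Il10, had a UMI in 1 of 135 inhibitor cells (0.741%) and 2 of 330 control cells (0.606%) at median depths of 4311 and 3064 UMIs, close to the 3314 and 2704 UMIs of Foxp3 positive cells. The intervals of both shares of Foxp3 positive cells include these. By level, hepatocyte-like cells were at 0.767 CPM (0.0194 to 4.27) in the inhibitor library, which does not overlap the interval of Foxp3 positive cells, and at 1.32 CPM (0.159 to 4.76) in the control library, which does. The inhibitor level rests on 2 cells. One cluster of hepatocyte-like cells, with 3 inhibitor and 176 control cells, also carried 3 of the T cell markers.

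Foxp3 negative CD4 T cells of the inhibitor library carried the highest Il10 level of any population. They had 90 Il10 UMIs in 27 of 298 cells in the inhibitor library, against 2 UMIs in 2 of 246 cells in the control library. The level was 87.8 CPM (70.6 to 108) in the inhibitor and 2.35 CPM (0.285 to 8.49) in the control library, a log2 ratio of 5.22 (3.33 to 8.29). The libraries stand far apart here, and the control share of 0.813% lies at the level seen in hepatocyte-like cells. Sequencing depth was alike, with medians of 3128 and 3237 UMIs per cell, and with every cell thinned to 1000 UMIs the share with an Il10 UMI was 5.43% in the inhibitor and 0.234% in the control library, after 3 and 4 shallower cells were left out.

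The Il10 UMIs of these CD4 cells were spread unevenly. In the inhibitor library 12 cells had 1 UMI, 6 had 2, 2 had 3, and 7 had between 5 and 14. Without the 3 cells with the most UMIs in each library Il10 was at 55.5 CPM in the inhibitor library and at 0 in the control library, a log2 ratio of at least 3.96 against the floor of 3 UMIs over the population. Most of the signal lay in T cell cluster 1, led by Gzmk, Cd8a and Pdcd1 and so mainly a CD8 cluster. There 68 inhibitor cells of the Foxp3 negative CD4 gate held 76 Il10 UMIs (346 CPM), whereas the 19 control cells held none, at least 6.42-fold higher against a floor of 3 UMIs over the population. The leading genes of cluster 5 include Izumo1r, Foxp3, Tnfrsf4, Cd4 and Ikzf2. In its cells of this gate Il10 was at 17.8 CPM (9.49 to 30.5) in 211 inhibitor cells and at 1.59 CPM (1 UMI) in 173 control cells. Most Foxp3 positive cells also lay in cluster 5, 89 in the inhibitor and 92 in the control library. They had Il10 there at 18.6 CPM (6.84 to 40.6, 6 UMIs) and 3.42 CPM (1 UMI). Within cluster 5 of the inhibitor library the intervals of the 2 gates thus overlap.

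**Figure D1:**
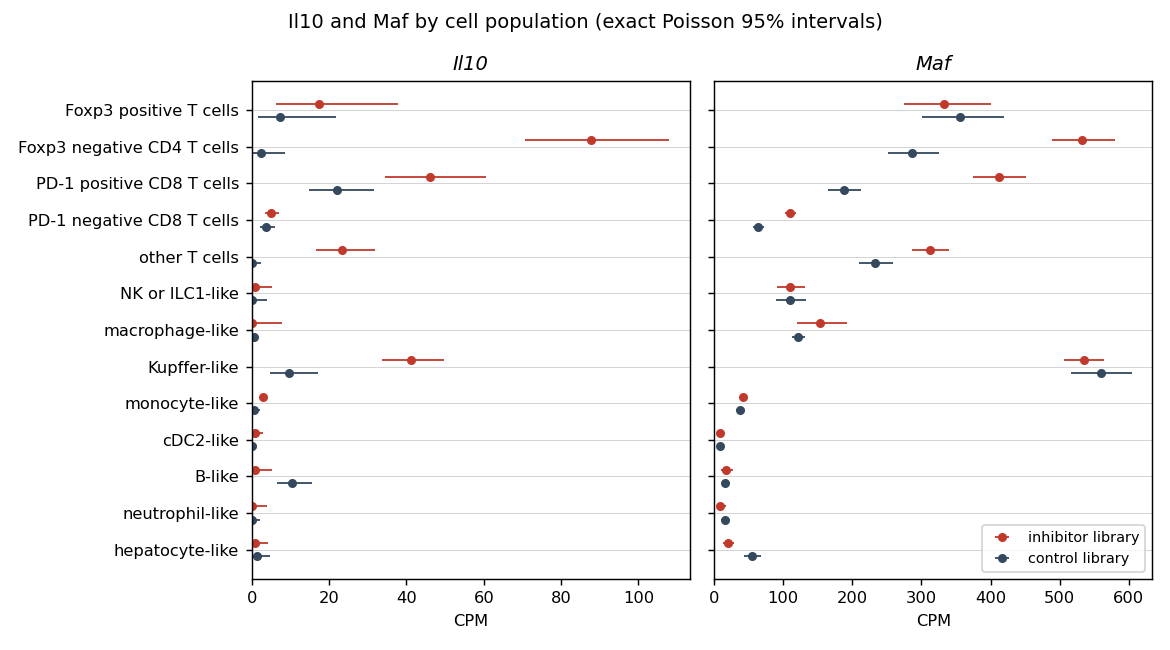
Il10 (left) and Maf (right) in CPM by cell population, with exact Poisson 95% intervals, in the inhibitor and control libraries. Il10 was highest in inhibitor Foxp3 negative CD4 T cells (87.8 CPM), where the control library had 2.35 CPM, while Maf was highest in Kupffer-like cells of both libraries (535 and 559 CPM).

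PD-1 positive CD8 T cells also carried Il10, in both libraries. The inhibitor library had 52 Il10 UMIs in 12 of 289 cells (46.1 CPM, 34.5 to 60.5) and the control library 29 UMIs in 15 of 318 cells (22.0 CPM, 14.7 to 31.6). Their log2 ratio of 1.07 (0.39 to 1.78) rested on a few cells: the inhibitor library had single cells with 19, 13 and 5 Il10 UMIs, and without the 3 highest cells of each library the ratio was 0.22 (-0.92 to 1.35). The shares of cells with a UMI, 4.15% (2.16 to 7.14) in the inhibitor and 4.72% (2.66 to 7.66) in the control library, overlapped widely. All of these Il10 UMIs lay in cluster 1.

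CD8 T cells with no Pdcd1 UMI had much lower levels, 4.93 CPM (3.37 to 6.95) in the inhibitor and 3.73 CPM (2.09 to 6.15) in the control library. T cells outside these gates, most of which had no Cd4, Cd8a or Cd8b1 UMI, had 39 Il10 UMIs in 21 of 507 inhibitor cells (23.3 CPM) and none in 453 control cells (a share of cells with a UMI of up to 0.662%, 3 of 453 cells), at least 11.4-fold higher in the inhibitor library. Of those UMIs 32 lay in cluster 1. In cluster 1 as a whole Il10 was at 51.1 CPM in 1081 inhibitor cells and at 13.9 CPM in 879 control cells, a log2 ratio of 1.87.

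**Figure D2:**
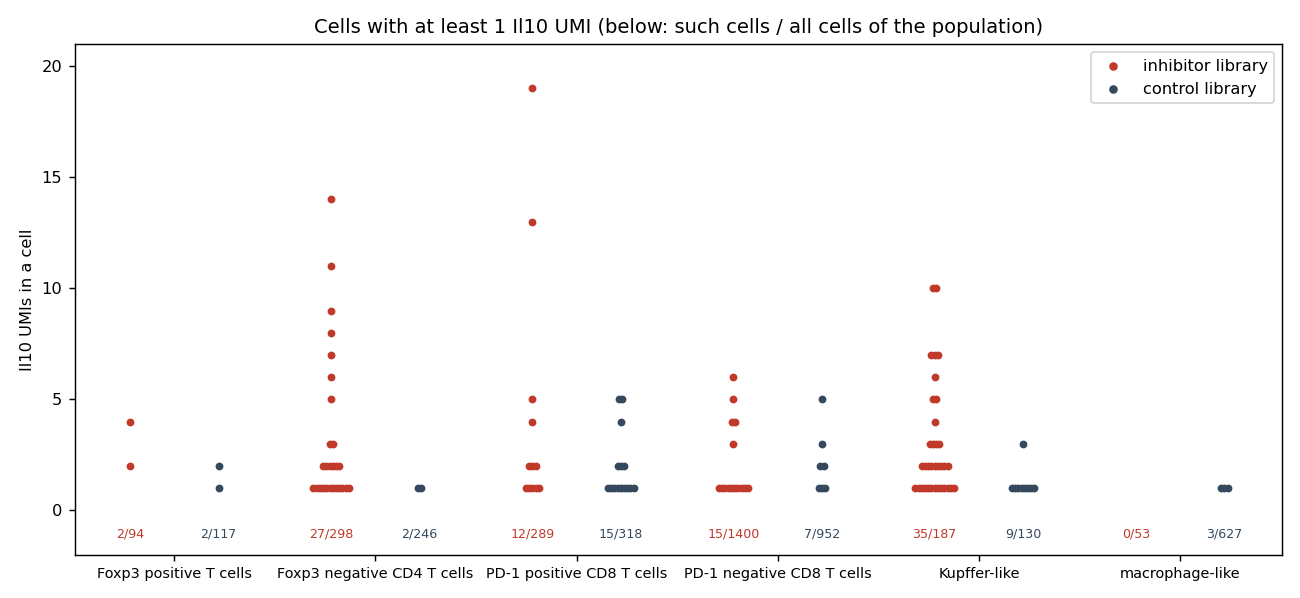
Il10 UMIs in each cell with at least 1, by population and library, with the number of such cells over all cells of the population below. In the inhibitor library 7 Foxp3 negative CD4 T cells held 5 to 14 UMIs and single PD-1 positive CD8 T cells 19 and 13, and no control T cell had more than 5.

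Among macrophages, Il10 was found in Kupffer-like cells and hardly at all in the macrophage-like cluster. Kupffer cells are the resident macrophages of the liver, and this cluster carried Clec4f, Vsig4 and Cd5l. They had 104 Il10 UMIs in 35 of 187 inhibitor cells (41.1 CPM, 33.6 to 49.8) and 11 UMIs in 9 of 130 control cells (9.57 CPM, 4.78 to 17.1), a log2 ratio of 2.10 (1.20 to 3.15). Inhibitor Kupffer-like cells were deeper, with a median of 13888 UMIs against 8058 in the control library. Thinned to 1000 UMIs, 3.02% of inhibitor and 1.34% of control cells had an Il10 UMI, after 11 and 8 shallower cells were left out.

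The macrophage-like cluster, led by Gpnmb, Trem2 and Ms4a7, had no Il10 UMI in 53 inhibitor cells, which allows a share of cells with a UMI of up to 5.66% (3 of 53 cells), and 3 UMIs in 627 control cells (0.479%). With 3 UMIs or fewer on both sides no fold is given. Monocyte-like cells had 96 Il10 UMIs spread over 66 of 4025 inhibitor cells (3.01 CPM) and 2 in 464 control cells (0.606 CPM). Neutrophil-like cells had none in 547 inhibitor cells and none in 803 control cells. B-like cells went the other way, with 1 UMI in 349 inhibitor cells (0.935 CPM) and 23 UMIs in 10 of 604 control cells (10.5 CPM), a log2 ratio of -3.48 (-8.85 to -0.86).

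Counted over all kept cells, Il10 was at 7.96 CPM in the inhibitor and 2.81 CPM in the control library, a log2 ratio of 1.5 (1.19 to 1.83). T cell-like cells held 49.1% of the Il10 UMIs in the inhibitor and 48.5% in the control library, but in different populations. Foxp3 negative CD4 T cells held 20.2% (16.6 to 24.2) in the inhibitor and 1.98% (0.241 to 6.97) in the control library, and PD-1 positive CD8 T cells 11.7% (8.83 to 15.0) and 28.7% (20.1 to 38.6). Kupffer-like cells held 23.3% and 10.9%, monocyte-like cells 21.5% and 1.98%, and B-like cells 0.224% and 22.8%. These shares follow the number of cells in each population as well as their levels. Monocyte-like cells made up 46.0% of inhibitor cells and 7.18% of control cells.

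**Figure D3:**
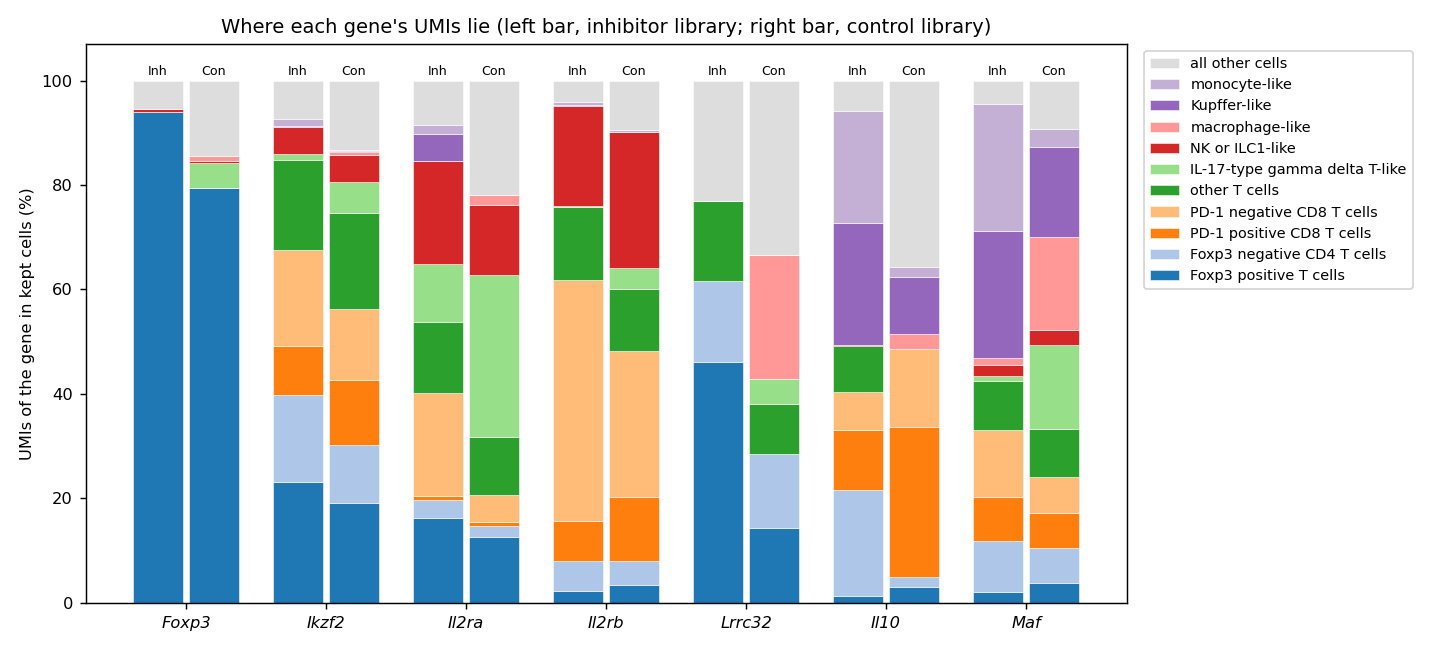
Share of each gene's UMIs, in percent of its UMIs over all kept cells, that lay in each cell population, with the inhibitor library as the left bar and the control library as the right bar of each pair. Foxp3 lay mostly in Foxp3 positive T cells (94.0% and 79.4%), whereas Foxp3 positive cells held 1.35% and 2.97% of Il10 and 2.07% and 3.88% of Maf.

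Maf was present in Foxp3 positive T cells but was not higher there than in several other populations, and it did not differ between the libraries beyond counting error in them. It was at 333 CPM (275 to 400) in 94 inhibitor cells and 356 CPM (300.4 to 419) in 117 control cells, a log2 ratio of -0.10 (-0.46 to 0.27). In Foxp3 negative CD4 T cells it was at 533 CPM (489 to 579) in the inhibitor and 287 CPM (252 to 325) in the control library, a log2 ratio of 0.89 (0.67 to 1.12). Inside the inhibitor library Maf was therefore lower in Foxp3 positive than in Foxp3 negative CD4 T cells, with a log2 ratio of -0.68 (-0.98 to -0.38). Inside the control library that ratio was 0.31 (0.01 to 0.62), in the other direction. The 2 gates differ in their mix of clusters: cluster 1 held 2 Foxp3 positive and 68 Foxp3 negative CD4 cells of the inhibitor library. Within cluster 5 Maf was at 323 CPM (264 to 391) in Foxp3 positive and 389 CPM (345 to 438) in Foxp3 negative CD4 cells of the inhibitor library. In the control library these were 274 CPM (217 to 341) and 263 CPM (225 to 306). The part of the cluster mix in the 2 ratios was not tested.

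PD-1 positive CD8 T cells had Maf at 412 CPM (375 to 451) in the inhibitor and 187 CPM (165 to 212) in the control library, a log2 ratio of 1.14 (0.91 to 1.36). The 3 highest cells of each library hardly bore on it: without them Maf was at 386 and 165 CPM. CD8 T cells without a Pdcd1 UMI had 110 CPM in the inhibitor and 63.6 CPM in the control library (0.79, 0.59 to 1.01). By cluster, Maf was at 425 CPM in inhibitor and 156 CPM in control T cells of cluster 1 (1.45, 1.30 to 1.59), at 351 and 263 CPM in those of cluster 5 (0.42, 0.24 to 0.60), and in cluster 3, led by Dapl1 and Lef1, at 16.8 and 16.2 CPM. Foxp3 negative CD4 cells had 1056 CPM in the inhibitor and 323 CPM in the control library in cluster 1, and 389 and 263 CPM in cluster 5.

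Of all populations Kupffer-like cells had the highest Maf level in each library, 535 CPM (507 to 564) in the inhibitor and 559 CPM (517 to 604) in the control library, a log2 ratio of -0.06 (-0.20 to 0.07). Their interval overlaps that of Foxp3 negative CD4 T cells in the inhibitor library and that of IL-17-type gamma delta T-like cells in both, which were at 497 CPM in 26 inhibitor cells and 524 CPM in 262 control cells. The macrophage-like cluster was far lower, at 153 CPM (120.0 to 193) in the inhibitor and 122 CPM (113 to 132) in the control library (0.33, -0.04 to 0.68). It nevertheless held 17.9% of the control library's Maf UMIs, in 627 cells, and 1.31% of the inhibitor library's. Monocyte-like cells had 42.2 CPM in the inhibitor and 37.6 CPM in the control library, NK or ILC1-like cells 110 and 109 CPM, and neutrophil-like cells 8.62 and 15.7 CPM.

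Among Foxp3 negative CD4 T cells of the inhibitor library, those with an Il10 UMI also had more Maf. Of the 27 such cells 88.9% had a Maf UMI, against 60.9% of the 271 without Il10, at like depth (medians 2812 and 3183 UMIs). Maf was at 1336 CPM in cells with Il10 and 461 CPM in cells without (log2 ratio 1.54, 1.23 to 1.84), and Ikzf2 at 840 and 317 CPM (1.41, 1.01 to 1.78). Il2rb was at 225 and 250 CPM (-0.15, -0.91 to 0.52). Il2ra had no UMI in the cells with Il10 and 4 in those without.

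The 20 genes listed for IL-10 producing CD4 T cells (Tr1) were mostly higher in the cells with Il10. Of 15 with at least 20 UMIs, 11 were at least 1.5-fold higher and 1 lower, and their median log2 ratio was 1.73, against -0.05 over 5187 genes, of which 17.0% were higher and 25.7% lower by that fold. Havcr2 (TIM-3), Lag3 and Pdcd1, which encode inhibitory receptors, were at 130, 189 and 237 CPM in cells with Il10 and at 10.6, 33.0 and 55.3 CPM in cells without. Eomes, a T-box factor of cytotoxic and Tr1 cells, was at 248 and 48.9 CPM (2.34, 1.52 to 3.12), Gzmk, which encodes a granzyme, at 840 and 206 CPM (2.02, 1.61 to 2.42), and Prdm1 (Blimp-1) at 142 and 20.2 CPM (2.81, 1.64 to 3.93). Icos, a costimulatory receptor, was the 1 lower gene, at 118 and 236 CPM (-0.998, -2.08 to -0.09). Of the macrophage genes C1qa and Csf1r the cells with Il10 had no UMI, and Lyz2 was at 130 CPM in them and 204 CPM in the others. Most Il10 UMIs of this gate lay in cluster 1, and the part of the cluster in these ratios was not tested.

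**Figure D4:**
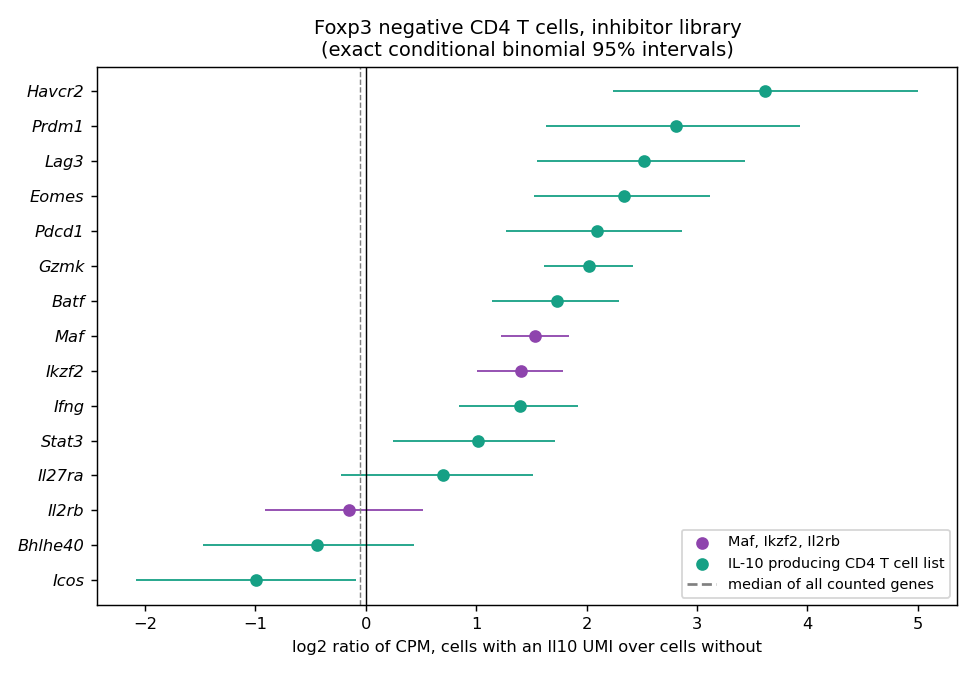
Log2 ratio of CPM of inhibitor Foxp3 negative CD4 T cells with an Il10 UMI (27 cells) over those without (271 cells), with exact conditional binomial 95% intervals. Genes with no UMI on 1 side, and some genes of the list that are not reported here, are left out. Most genes of the IL-10 producing CD4 T cell list lie right of the dashed median of all counted genes (-0.05), as do Maf (1.54) and Ikzf2 (1.41), and Il2rb (-0.15) does not.

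CD8 T cells with no Pdcd1 UMI showed the same direction in both libraries. Maf was at 777 CPM in 15 inhibitor cells with Il10 and 104 CPM in 1385 without (2.89, 2.41 to 3.34), and at 635 CPM in 7 control cells with Il10 and 58.9 CPM in 945 without (3.43, 2.71 to 4.08). Of the Tr1 list 15 of 17 genes were higher and 0 lower in the inhibitor library (all genes 28.6% and 8.55%), and 10 of 16 higher and 0 lower in the control library (26.4% and 7.22%), with medians of 2.06 and 1.31. In the T cells outside the gates, in 21 inhibitor cells with Il10 Maf was at 1702 CPM, against 261 CPM in 486 cells without (2.71, 2.38 to 3.02), and 9 of 15 Tr1 list genes were higher and 0 lower, beside 22.4% and 14.2% of all genes. In PD-1 positive CD8 T cells the libraries differed. Maf was at 465 CPM in 12 inhibitor cells with Il10 and 408 CPM in 277 without (0.19, -0.37 to 0.70), but at 701 CPM in 15 control cells with Il10 and 154 CPM in 303 without (2.19, 1.74 to 2.62). The cells with Il10 were the deeper ones, with medians of 4912 and 3375 UMIs in the inhibitor and 4771 and 3685 in the control library, and the part of depth was not tested. Of the Tr1 list 6 of 15 genes were higher and 1 lower in the inhibitor library (all genes 18.9% and 22.4%), and 10 of 17 higher and 3 lower in the control library (19.6% and 22.6%). The higher values were not confined to the Tr1 list. Of the regulatory T cell list 10 of 16 genes were higher and 0 lower here in the inhibitor library, and 12 of 17 and 2 in the control library. In PD-1 negative CD8 T cells these were 13 of 21 and 0, and 9 of 20 and 1. In inhibitor T cells outside the gates they were 10 of 18 and 1. The 2 lists share some genes. In inhibitor Kupffer-like cells Maf was slightly lower with Il10, at 470 CPM in 35 cells against 557 CPM in 152 cells (-0.25, -0.43 to -0.06), and 1 of 10 Tr1 list genes was higher and 4 lower (4.98% and 17.2%). Their Tr1 list median was -0.46, against -0.10 over all genes. In control Kupffer-like cells it was 0.46 over 7 counted genes, against 0 over all genes.

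The other regulatory T cell genes marked the Foxp3 gate to differing degrees. Ikzf2, the Ikaros family factor Helios, was at 1487 CPM (1361 to 1621) in inhibitor and 1269 CPM (1162 to 1384) in control Foxp3 positive cells, a log2 ratio of 0.23 (0.05 to 0.41). It was at 360 CPM in the inhibitor and 352 CPM in the control library in Foxp3 negative CD4 T cells, so within each library it was higher in the Foxp3 cells by log2 ratios of 2.05 (1.85 to 2.24) and 1.85 (1.64 to 2.06). PD-1 positive CD8 T cells had 183 CPM in the inhibitor and 252 CPM in the control library (-0.47, -0.72 to -0.21). Most Ikzf2 UMIs lay outside the Foxp3 positive cells, which held 23.2% of them in the inhibitor and 19.1% in the control library.

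Il2ra, the alpha chain that gives the IL-2 receptor its high affinity, was sparse: 19 UMIs in 15 of 94 inhibitor Foxp3 positive cells (55.1 CPM, 33.2 to 86.0) and 32 UMIs in 22 of 117 control cells (79.2 CPM, 54.1 to 112). The log2 ratio between the libraries was -0.52 (-1.42 to 0.34). Foxp3 negative CD4 T cells had 3.90 CPM in the inhibitor and 5.87 CPM in the control library, so Foxp3 positive cells were higher by log2 ratios of 3.82 (2.23 to 5.83) and 3.75 (2.38 to 5.47). IL-17-type gamma delta T-like cells had levels as high, 129 CPM (68.8 to 221) in 26 inhibitor and 68.2 CPM (53.9 to 85.1) in 262 control cells, and these control cells held 31.0% of the library's Il2ra UMIs. NK or ILC1-like cells had 21.8 CPM in the inhibitor and 36.8 CPM in the control library.

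Foxp3 was highest in Foxp3 positive T cells through the gate. Il2ra was highest there in the control library (79.2 CPM), and in the inhibitor library second (55.1 CPM) to IL-17-type gamma delta T-like cells (129 CPM). Only these 2 of the 7 genes had an entry that was found among the RefSeq promoter windows (GRCm38.p6, 250 bases before to 50 after a transcript start). For each gene 1 window holds 1 copy of TGCTGA, searched on both strands (TCAGCA on the other) as the letters of a MAF half-site. They are shown with that match in capitals, which starts at base 136 of the Foxp3 window chrX:7579426-7579725 and base 258 of the Il2ra window chr2:11642542-11642841, both on the + strand:
Foxp3: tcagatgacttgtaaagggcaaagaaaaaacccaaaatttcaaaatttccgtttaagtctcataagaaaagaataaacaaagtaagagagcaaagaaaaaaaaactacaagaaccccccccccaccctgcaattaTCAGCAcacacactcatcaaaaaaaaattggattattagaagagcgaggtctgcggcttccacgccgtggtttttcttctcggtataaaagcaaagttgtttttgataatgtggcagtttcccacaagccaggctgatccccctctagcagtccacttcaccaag
Il2ra: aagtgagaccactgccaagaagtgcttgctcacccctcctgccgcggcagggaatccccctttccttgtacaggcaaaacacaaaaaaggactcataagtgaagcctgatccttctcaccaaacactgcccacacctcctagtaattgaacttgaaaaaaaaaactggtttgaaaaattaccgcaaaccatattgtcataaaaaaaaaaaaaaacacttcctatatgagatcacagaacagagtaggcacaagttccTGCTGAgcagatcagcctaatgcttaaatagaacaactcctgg
A second Foxp3 window held no copy. The same letters occur in 6401 of 32851 promoter windows (19.5%), and the forkhead letters TGTTTAC, searched on both strands (GTAAACA), in 3.65% and in none of these 3 windows. A match of letters is not evidence of binding.

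Il2rb, the beta chain shared by the IL-2 and IL-15 receptors, was not highest in Foxp3 cells. It was at 284 CPM (231 to 346) in inhibitor and 304 CPM (253 to 363) in control Foxp3 positive cells, and at 297 and 321 CPM in PD-1 positive CD8 T cells. NK or ILC1-like cells had 795 CPM (742 to 850.3) in the inhibitor and 982 CPM (919 to 1048) in the control library, above every other population in each. Foxp3 negative CD4 T cells had 248 CPM in the inhibitor and 188 CPM in the control library (0.40, 0.11 to 0.69), and PD-1 negative CD8 T cells 313 and 243 CPM (0.37, 0.26 to 0.48). Within a library Foxp3 positive exceeded Foxp3 negative CD4 T cells by a log2 ratio of 0.20 (-0.15 to 0.54) in the inhibitor and 0.70 (0.34 to 1.04) in the control library.

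Lrrc32 was near the limit of detection, with 13 UMIs in the whole inhibitor library and 21 in the control library. Foxp3 positive cells had 6 UMIs in 5 inhibitor cells (17.4 CPM, 6.38 to 37.9) and 3 UMIs in 2 control cells (7.42 CPM, 1.53 to 21.7), with a log2 ratio of 1.23 (-0.999 to 3.86). Within the inhibitor library its ratio to Foxp3 negative CD4 T cells, which had 2 UMIs, was 3.16 (0.67 to 6.50). In the control library 5 of the 21 UMIs were in 1 macrophage-like cell.

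**Figure D5:**
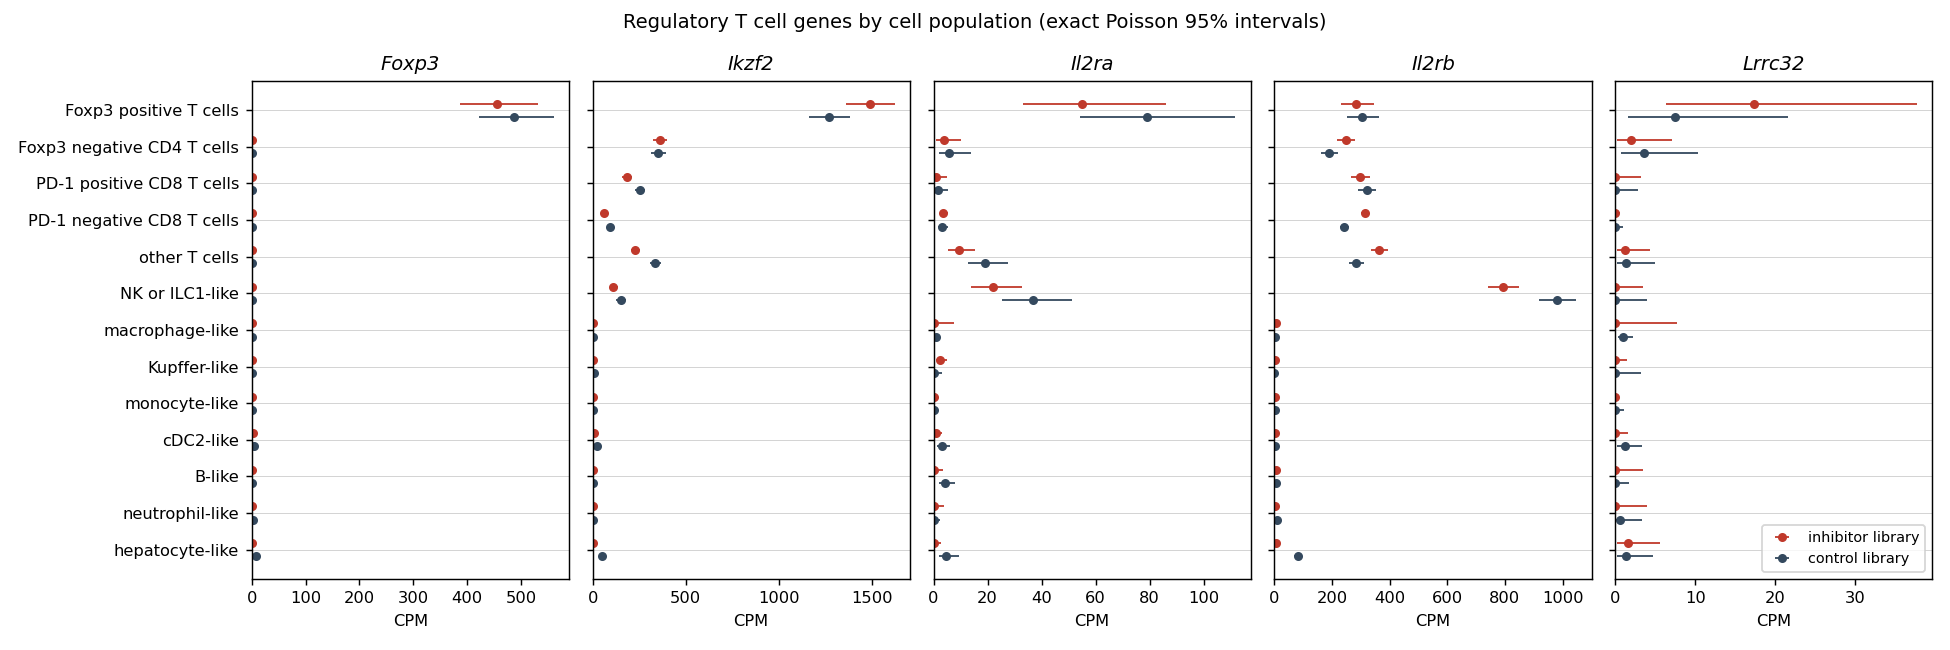
Foxp3, Ikzf2, Il2ra, Il2rb and Lrrc32 in CPM by cell population with exact Poisson 95% intervals, in the inhibitor and control libraries. Ikzf2 was highest in Foxp3 positive T cells (1487 and 1269 CPM) and Il2rb in NK or ILC1-like cells (795 and 982 CPM), and Foxp3 is at 0 in the other T populations because the gate placed it there.

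The genes lie at these places in the GRCm38 annotation (GENCODE M21). Foxp3 spans chrX:7573644-7595245 on the + strand and is overlapped by Ppp1r3f, Gm36995 and Ccdc22 on the - strand and Flicr on the + strand. Ikzf2 spans chr1:69531214-69687245 (- strand), Il10 chr1:131019845-131024974 (+), Il2ra chr2:11642807-11693193 (+), Il2rb chr15:78479256-78495271 (-), Lrrc32 chr7:98489283-98502181 (+) and Maf chr8:115682942-115707794 (-). The antisense gene Gm15655 overlaps Maf. Whether counting used strand was not given in the sources used here, so reads of Foxp3, Ikzf2 (overlapped by Gm29114, Gm29112 and Gm28112) and Maf may include some from their overlapping genes.

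The Foxp3 gate also separated genes it did not use. Areg, which encodes the tissue repair factor amphiregulin, was at 186 CPM in Foxp3 positive and 27.3 CPM in Foxp3 negative CD4 T cells of the inhibitor library (2.76, 2.10 to 3.46) and at 109 and 4.70 CPM in those of the control library (4.53, 3.08 to 6.47). Tnfrsf9, the costimulatory receptor 4-1BB, was at 116 and 16.6 CPM in the inhibitor (2.81) and 139 and 35.2 CPM in the control library (1.98). Rgs2, Fam46a, Capg, Matk, Dst and Pim1 also led the higher genes, with log2 ratios of 1.31 to 2.99 in the inhibitor and 1.37 to 2.45 in the control library. Of the 30 listed regulatory T cell genes other than the 7, 19 had at least 20 UMIs in each library, and 12 of these were at least 1.5-fold higher in both and 0 lower in both. Their median log2 ratios were 1.11 in the inhibitor and 1.08 in the control library, against 0.06 and 0.07 over all genes, of which 15.0% and 15.3% were higher and 13.5% and 9.97% lower. Tnfrsf18 (GITR), Tnfrsf4 (OX40), Icos, Ikzf4, Izumo1r and Nrp1 were among the 12.

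Lower in Foxp3 positive cells in both libraries were Themis, a regulator of T cell receptor signalling (26.1 and 157 CPM in the inhibitor, 19.8 and 117 CPM in the control library), and Ifng, the cytokine interferon gamma (37.7 and 188 CPM in the inhibitor, 27.2 and 141 CPM in the control library). So were Gzmk, Tcf7 (the memory factor TCF-1), Cd40lg (the helper ligand CD40L), Tnfsf8, Tbc1d4, Gramd3 and Podnl1, with log2 ratios of -3.86 to -1.78 in the inhibitor and -3.59 to -1.60 in the control library. Cd4 was lower too, but a Cd4 UMI was required of the Foxp3 negative cells and not of the Foxp3 positive ones. The 2 gates also differ in their mix of clusters, and the part of that mix in the higher and lower genes was not tested.

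Between the libraries, Foxp3 positive T cells differed in both directions in the listed genes. Their mix of clusters differed as well. Cluster 5 held 89 inhibitor and 92 control Foxp3 positive cells, cluster 1 held 2 and 8, and cluster 9 held 1 and 17. The part of this mix in the ratios of these and the other lists was not tested. Of the 30 regulatory T cell genes 26 had at least 20 UMIs, and 7 were higher and 4 lower in the inhibitor library by 1.5-fold, with a median log2 ratio of 0.07. Over all 4459 genes 13.5% were higher and 11.4% lower, with a median of 0.05. The highest were Klrg1, a lectin receptor of effector cells (101.4 CPM in the inhibitor, 39.6 CPM in the control library, 1.36, 0.47 to 2.31), and Dusp4 (1.12), and the lowest Cd83 (23.2 and 89.1 CPM, -1.94, -3.26 to -0.81) and Ikzf4 (40.6 and 96.5 CPM, -1.25, -2.25 to -0.34). Ctla4, the inhibitory receptor of regulatory T cells, was at 371 CPM in the inhibitor and 218 CPM in the control library (0.77, 0.37 to 1.18), and Icos at 585 and 371 CPM (0.66, 0.35 to 0.97).

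The other lists stand beside the same shares of all genes, 13.5% higher and 11.4% lower. The IL-2 pathway had 1 of 12 counted genes higher (Socs2 0.76) and 1 lower (Stat5a -0.77), with Pim1 at 0.51 and Bcl2 at -0.56, the latent TGF-beta list 0 of 10 higher and 2 lower (Skil -1.11, Tgfbr2 -0.72), and the IL-10 receptor and response list 2 of 10 higher (Socs3 0.76, Stat3 0.62) and 2 lower (Tyk2 -0.83, Sbno2 -0.77). In the Tr1 list 2 of 13 were higher (Icos, Stat3) and 3 lower. The lowest were Lag3 (-1.27) and Pdcd1, which was at 43.5 CPM in the inhibitor and 121 CPM in the control library (-1.48, -2.42 to -0.62). Of 16 counted Foxp3 partners and regulators 2 were higher and 4 lower, with Nr4a1, an early gene of T cell receptor signalling, highest at 101.4 CPM in the inhibitor and 24.7 CPM in the control library (2.04, 0.99 to 3.21). Tet2 was at 0.81, Nr4a2 at -0.94 and Nfatc2 at -0.63. The Ikaros family had 0 of 4 higher and 2 lower (Ikzf4, and Ikzf5 at -1.05), the MAF family 1 counted gene, Mafg (0.76, -0.58 to 2.17), and the IL-10 family no gene with enough UMIs. Among the genes given here by their ratio alone, Dusp4 included, the counting interval excluded 0 for Pim1 and Skil and included it for each of the others.

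In Foxp3 negative CD4 T cells, where Il10 and Maf stood apart between the libraries, 7 of 17 counted Tr1 genes were higher and 3 lower in the inhibitor library, with a median of 0.43 against 0.06 over 6916 genes (11.2% higher, 9.12% lower). The clusters within this gate differed between the libraries. Cluster 1 held 68 inhibitor and 19 control cells of it, and cluster 9, whose leading genes include Ifi214 and Ifit3, 11 and 52. The part of this mix in the ratios was not tested. Eomes was at 65.4 CPM in the inhibitor and 36.4 CPM in the control library (0.84, 0.21 to 1.51), and Havcr2 at 20.5 and 1.17 CPM, 21 and 1 UMIs (4.12, 1.49 to 9.49). Ahr, which encodes the aryl hydrocarbon receptor, was lower, at 23.4 and 48.2 CPM (-1.04, -1.83 to -0.28). In the regulatory T cell list 5 of 21 were higher and 3 lower, among them Areg at 27.3 CPM in the inhibitor and 4.70 CPM in the control library (2.54, 1.02 to 4.51). Markers of macrophages summed to 75.1 CPM in inhibitor and 281 CPM in control Foxp3 negative CD4 cells, and of hepatocytes to 70.3 and 973 CPM. Those of B cells summed to 141 and 204 CPM there, and those of neutrophils, in the other direction, to 49.8 and 18.8 CPM. The part of these RNAs in the Il10 results was not tested.

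PD-1 positive CD8 T cells had 2 of 19 counted Tr1 genes higher and 2 lower in the inhibitor library (all genes 9.24% and 10.2%), with a list median of -0.11, although their Maf was higher. Il10ra, the receptor chain for IL-10, was at 58.5 CPM in the inhibitor and 102 CPM in the control library there (-0.80, -1.24 to -0.36). In Kupffer-like cells 2 of 13 genes of the IL-10 receptor and response list were higher and 3 lower (all genes 11.9% and 18.8%), with Bcl3 at 44.3 and 18.3 CPM (1.28, 0.60 to 2.02) and Il10rb at 155 and 234 CPM (-0.59, -0.82 to -0.37). In the macrophage-like cluster, with 53 inhibitor cells, 5 of 12 were higher and 0 lower (all genes 15.8% and 15.8%), led by Il1rn, which encodes the IL-1 receptor antagonist (138 and 42.0 CPM, 1.72, 1.30 to 2.12).

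Across the 11 populations with at least 100 cells in each library, likeness of pattern was measured by Pearson's r of log2 levels, ranked by the lower of the 2 libraries' values over 10544 genes. The genes most like Maf were Arhgap10, Meis3, Pld3, Gbp8 and Galnt6, with r of Arhgap10 at 0.93 in the inhibitor and 0.92 in the control library. Those most like Il10 were Ap4e1, Lclat1, Fastkd3, Pign and Proser1, with r of Ap4e1 at 0.71 and 0.81. The measure adds 10 CPM to each level before the log. Control Il10 lay below that in most of the 11 populations, such as Foxp3 negative CD4 T cells (2.35 CPM). Its r in that library therefore rests on few populations, and the names are the top of 10544 genes. Populations of a library share its depth and free RNA, so these values are a description. For Foxp3 the rule named Snx22, Cd34, Gria3, Dbn1 and Cyp51, but the measure cannot be read, since Foxp3 positive T cells, with 94 inhibitor cells, are not among the 11 and the gate sets Foxp3 to 0 in 4 of them.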

How the data were processed

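Each library was deposited as a matrix of unique molecular identifier counts per gene and cell barcode, unnormalized. Per the file headers, Cell Ranger 5.0.1 made them. The 3′ v2 kit and HiSeq sequencing are given per the labels' protocols, and R 3.0, Seurat 3 and the build mm9 per the submitters' processing notes. The aligner settings and the treatment of doublets by the authors are not stated in the sources used here. Of the gene IDs, 30934 (99.6%) were found in GENCODE M21 (GRCm38), which gave the gene positions.

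Barcodes with at least 300 genes, 500 UMIs and at most 25% mitochondrial UMIs were used. Doublets were scored against 2 simulated doublets per cell, and 0.8% per 1000 barcodes was removed, 717 inhibitor (7.57%) and 374 control cells (5.47%). Counts scaled to 10000 UMIs and logged, 2000 variable genes without the 7 members, 30 principal components, 20 neighbours and Leiden resolution 1 gave 27 clusters. A cluster was called X-like from at least 3 listed markers that were 2-fold higher in it. CPM is a gene's UMIs over all UMIs of a population. Its interval is exact Poisson, that of a ratio conditional binomial, and that of a share Clopper-Pearson, all at 95% and for counting error alone. A count of 0 was read against a floor of 3, in UMIs for levels and in cells with a UMI for shares. A list gene counted with at least 20 UMIs over both sides and was called higher or lower past 1.5-fold. Thinned shares used 1000 UMIs per cell.

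The members and lists were chosen with earlier results of these data known. The named genes are the members, the 10 highest and 10 lowest genes of the Foxp3 positive against Foxp3 negative CD4 comparison, the 5 genes most alike in pattern (CPM + 10 on the log2 scale, at least 50 UMIs per library), and the 2 highest and 2 lowest of each list in Foxp3 positive T cells. Other list genes, and genes named for cells with Il10 or other populations, were chosen after their values were seen. Promoter windows came from RefSeq (GRCm38.p6), where 2 of the 7 genes had an entry that was found, and those of the others are not shown. Scripts were checked on simulated data. Python 3.11.15, numpy 2.4.6, scipy 1.17.1, pandas 2.3.3, scikit-learn 1.9.0, igraph 0.11.9, leidenalg 0.10.2 and matplotlib 3.10.9 were used. Alternatives changed doublet removal, mitochondrial and gene limits, clustering, the Foxp3 gate, normalization, free RNA and list minimums. Some genes of the lists are counted in the list totals and not reported by name here.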

Additional observations from a re-analysis of the deposited data

Results flagged for a closer look

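Il10, Maf and Il2rb differed between the libraries in opposite directions in different populations, and none of these differences was tested. The log2 ratio of inhibitor over control for Il10 was 5.22 in Foxp3 negative CD4 T cells and -3.48 in B-like cells, where the control UMIs lay in 10 cells. For Maf it was 1.14 in PD-1 positive CD8 T cells and -1.45 in hepatocyte-like cells, and for Il2rb 0.40 in Foxp3 negative CD4 T cells and -4.39 in hepatocyte-like cells. The 2 hepatocyte values turned positive with no mitochondrial limit. They also compare different clusters. Of the hepatocyte-like clusters, cluster 20 held 131 inhibitor and 2 control cells, and cluster 19 held 1 and 152. Cluster 18, which also carried 3 of the T cell markers, held 3 and 176.

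Barcodes left out by the limits or as doublets, 1896 in the inhibitor and 3032 in the control library, also carried the genes and are part of no comparison. In them Il10 was at 13.0 CPM (157 UMIs) in the inhibitor and 0.400 CPM (7 UMIs) in the control library, a log2 ratio of 5.02. Maf was at 94.6 and 36.8 CPM (1.36), Il2rb at 57.9 and 24.9 CPM (1.22) and Ikzf2 at 31.2 and 24.7 CPM (0.34). The 2 sets of barcodes are unlike in make-up. Doublets were 717 of the 1896 inhibitor and 374 of the 3032 control barcodes, and the rest failed the limits. The part of this in the ratios was not tested.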

How the results depend on the processing

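No paired analysis was possible because each group has 1 library. An alternative value was counted as moved when it left the counting interval of its main value (for a count, 1.5 times), and as turned when the main interval excluded 0 and the sign changed. Of the alternative values for the 15 main results, 191 stayed, 20 moved and 0 turned, and for 53 other values 699 stayed, 55 moved and 6 turned. Counting every sign change, also of ratios whose main interval includes 0, there were 5 in 3 of the main results (Maf in Foxp3 positive, macrophage-like and Kupffer-like cells) and 35 in 18 of the others. The log2 ratio of Il10 in Foxp3 negative CD4 T cells lay between 2.68 and 5.33 over 17 alternatives, that of Il10 in Kupffer-like cells between 1.29 and 2.86, and that of the Foxp3 positive share of T cells between -0.68 and -0.58. That share counts cells, so the alternatives of free RNA and normalization could not change it. Its values under them are among the 191 that stayed and say nothing about free RNA. The cause of each move was not tested.

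Maf in macrophage-like cells had a ratio of -0.12 with a doubled share of doublets removed, 1.17 with at most 10% mitochondrial UMIs and -0.35 with the members kept for clustering, so its direction is not settled. The macrophage-like share of inhibitor Maf UMIs was 0.766% with doubled doublet removal, 1.81% with no mitochondrial limit, 5.41% with the 10% limit, 2.11% at resolution 0.5 and 2.23% with the members kept. The control share was 19.4% with doubled doublet removal, 19.2% with the 10% limit and 19.4% with the members kept. Maf in Kupffer-like cells was at -0.38 with the libraries clustered separately and 0.71 with free RNA subtracted, and in PD-1 positive CD8 T cells at 1.43 as a mean of each cell's CPM. The number of regulatory T cell list genes past 1.5-fold in Foxp3 positive T cells, 11 in the main setting, lay between 5 and 14 over 13 alternatives. It was 5 with at least 2 Foxp3 UMIs per cell and 5 with at least 50 UMIs per gene.

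Some alternatives were chosen after seeing the data. Without the 3 cells with the most UMIs the Il10 ratio in PD-1 positive CD8 T cells was 0.22. In Foxp3 negative CD4 T cells the Il10 ratio was at least 2.68 within cluster 1, and the Maf ratio was 1.71 within cluster 1 and 0.57 within cluster 5. In other T cells within cluster 1 Ikzf2 turned to 0.20 and Il2rb to -0.47, and within cluster 5 Ikzf2 in PD-1 negative CD8 T cells turned to 0.59. Il2rb in monocyte-like cells turned to 0.41 with no doublets removed, and with no mitochondrial limit Il2rb turned to 0.30 and Maf to 1.17 in hepatocyte-like cells. Separate clustering gave the inhibitor library no macrophage-like cluster, and Il10 in macrophage-like cells had too few UMIs for a fold. With 94 and 117 Foxp3 positive cells, Il10 and Lrrc32 there rest on 6 UMIs in the inhibitor and 3 in the control library, which bounds neither direction. The libraries also differ in depth and in free liver RNA, and treatment and library cannot be told apart.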
